A study of Mus musculus with 2 samples.

Results

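Transcripts of 10 antioxidant enzyme genes, of 27998 genes in the matrices, were followed in mouse islet cells: the superoxide dismutases Sod1 and Sod2, catalase (Cat), the glutathione peroxidases Gpx1, Gpx3 and Gpx4, thioredoxin (Txn1) and its reductase (Txnrd1), the quinone reductase Nqo1 and heme oxygenase Hmox1. They were chosen by name, with earlier results of these data known, so the counts below describe these genes and are no test. For all 10 genes a row of the same symbol was found in both matrices.

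Islet cells came from wild-type mice (WT, genotype label Wildtype) and from homozygous ghrelin-knockout littermates (GKO), all male C57BL/6N mice of 8 weeks on standard chow with free access to food. GKO mice carry a germline deletion of the ghrelin gene, and the labels name no drug treatment for either genotype. The digested pancreases of 4 mice per genotype were combined before islets were picked by hand, dispersed and sorted for live single cells, so each genotype is 1 pool and 1 droplet-based 3′ RNA library. With 1 library per genotype no test was possible, no difference has a replicate check, and the intervals given are exact 95% Poisson or Clopper-Pearson intervals that cover counting error only.

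Antioxidant enzymes work in series. Superoxide dismutases turn superoxide into hydrogen peroxide, which catalase and the glutathione peroxidases reduce to water, while the thioredoxin system keeps protein thiols reduced and NRF2-driven enzymes such as Nqo1 and Hmox1 handle quinones and heme. Pancreatic β cells are known for low catalase and low glutathione peroxidase activity compared with liver and most other tissues, and the comparison below asks how far this holds at the level of transcripts against the other cells of the same islets.

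The WT library held 158067110 UMIs (unique molecular identifiers, 1 per captured transcript) in 7792 barcodes, and the GKO library held 103511757 UMIs in 7289 barcodes, of which 7100 and 6346 reached 500 detected genes with no more than 10% of UMIs from mitochondria. Ghrl, the deleted gene, gave 276 CPM in WT and 2.71 in GKO (UMIs of a gene per 1000000 UMIs). Barcodes were named after the hormone with the most UMIs when it took at least 10% of them. In WT and GKO, 2265 and 872 barcodes were insulin-led (Ins1 plus Ins2), and 1656 and 2405 were nonendocrine. The other hormone-led barcodes, 3179 and 3069, were 1048 and 1397 glucagon-led, 1414 and 1003 somatostatin-led, and 717 and 669 pancreatic polypeptide-led. This pool thus had another makeup in each library. The part of its makeup in differences between the libraries in pooled ratios and counts was not tested. All 7 markers listed for insulin-led barcodes had UMIs in them, among them Ins1 and Ins2, which define the class. The listed markers without these (Iapp, Slc2a2, Mafa, Nkx6-1 and G6pc2) summed to 105592 (WT) and 102292 (GKO) CPM over non-hormone UMIs. In the other hormone-led barcodes this sum was 16630 and 13936. Within the nonendocrine barcodes, fixed marker lists gave 505 and 394 endothelial-like, 233 and 548 activated stellate-like, 134 and 253 quiescent stellate-like, and 163 and 404 macrophage-like barcodes. 18 barcode sequences occurred in both libraries. The macrophage genes C1qa, C1qb and C1qc gave at least 1 UMI in 74.7% (WT) and 78.9% (GKO) of insulin-led barcodes, and 3 or more acinar markers were found in 43.3% and 27.1% of them, and the part of these cells in the hormone-led sums was not tested.

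Insulin-led barcodes had lower levels of 9 of the 10 genes, in CPM of all UMIs, than the other hormone-led barcodes in WT. That share was also seen over the whole genome: 91.7% of 12673 genes with at least 100 UMIs were lower. In GKO, 9 of 9 genes that passed this minimum were lower, beside 91% of 12032 genes. Insulin-led barcodes spent most of their UMIs on hormone genes, with 38.7% (WT) and 40.8% (GKO) left for all other genes, against 70.7% and 70.6% in the other hormone-led barcodes. On this scale the median gene stood at a log2 ratio of -0.86 in WT and -0.81 in GKO, and the members' median at -0.94 and -0.93.

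A fold of 2 was passed by 4 genes in WT (Sod1, Gpx1, Gpx3 and Hmox1), beside 37.7% of all genes, and by 2 in GKO (Gpx3 and Hmox1), beside 33.9%. When scaled to the UMIs that are not of a hormone gene, 6 of 10 genes were lower in insulin-led barcodes in WT (49.5% of all genes) and 5 of 9 in GKO (52.2%), and the members' median was -0.07 and -0.14. Only Gpx3 was then lower by more than a fold of 2, in WT (beside 7.65% of all genes) and in GKO (7.64%). A low CPM of all UMIs was thus shared by most genes of insulin-led barcodes. On the total without hormone UMIs Gpx3 was the one antioxidant gene lower past this fold, 1 of 10 in WT and 1 of 9 in GKO. These counts were close to the share over all genes. On the same total 1 of 10 genes in WT, Nqo1, was higher past a fold of 2, beside 6.69% of all genes. Levels of the single genes are given as CPM on that total unless another scale is named.

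**Figure D1:**
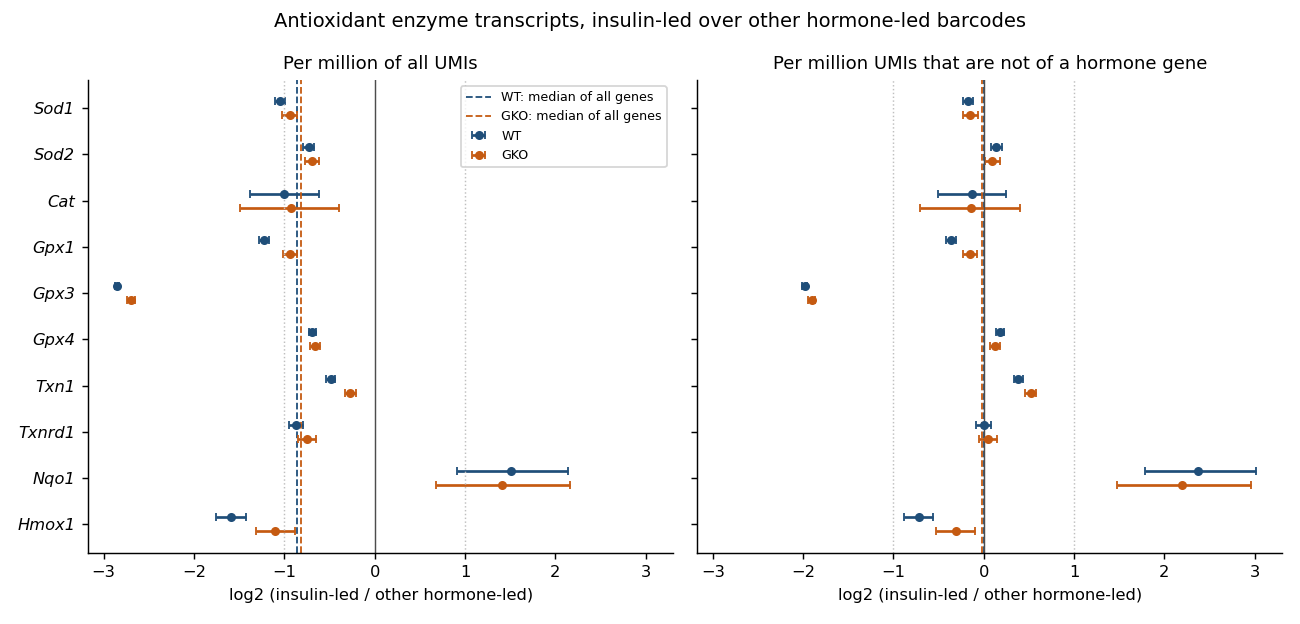
The log2 ratio of insulin-led to other hormone-led barcodes (x axis) is plotted for the 10 genes in WT (blue) and GKO (orange), in CPM of all UMIs (left) and in CPM of non-hormone UMIs (right), with 95% Poisson intervals, dashed lines at the median of all genes and dotted lines at a fold of 2. Gpx3 is at -2.85 and -2.70 on the left and at -1.98 and -1.91 on the right, while Nqo1 is the one gene above 0 on the left.

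Counted per barcode, with no scaling, insulin-led barcodes held as many UMIs of these enzymes as other hormone-led barcodes or more, with Gpx3 as the exception in both libraries and Hmox1 in WT. In WT, an insulin-led barcode held on average 2.09 UMIs of Sod1 against 1.68, 4.31 of Gpx4 against 2.7, and 3.44 of Txn1 against 1.87. Its Gpx3 count was 6.58 against 18.5 in WT and 6.35 against 16.2 in GKO. Insulin-led barcodes were deeper, with a median of 37124 UMIs in WT and 35811 in GKO against 12720 and 12361. Their median of detected genes was also higher, at 3977 and 4034.5 against 3174 and 3098. The share of all genes with more UMIs per insulin-led barcode was not counted, so these values cannot be read as particular to the enzymes. The part of depth in these counts was not tested.

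Promoter sequence was compared for 2 sets of letters that bear on how such genes are often grouped: the core of the antioxidant response element bound by NRF2, TGACNNNGC (GCNNNGTCA on the other strand), and the TATA box letters TATAAA, both searched on either strand. RefSeq windows of 300 bases around a transcription start (GRCm38.p6) were found for 9 of the 10 genes, Hmox1 being the exception, in 14 windows. The antioxidant response element letters were in 2 of these 14 windows, of Txnrd1 and Sod1, and in 12.4% of 32851 windows of all genes. TATAAA was in 3 of the 14 windows, of Nqo1, Sod1 and Txn1, and in 13.6% of all windows. The Txnrd1 match lies before a start inside the gene, which itself begins at chr10:82833951. The matches below are printed on the strand of the gene, with the matched letters in capitals.
Txnrd1, chr10:82859104-82859132, + strand, 92 bases before the start: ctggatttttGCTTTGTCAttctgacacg
Sod1, chr16:90220696-90220724, + strand, 56 bases before the start: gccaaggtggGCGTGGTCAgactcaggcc
Sod1, chr16:90220715-90220740, + strand, 37 bases before the start: gactcaggccTATAAAagctccgtgg
Nqo1, chr8:107403219-107403244, - strand, 29 bases before the start: ataagcaggaTATAAAgccttcgctc
Txn1, chr4:57956556-57956581, - strand, 160 bases before the start: ctccgcccctTATAAActaaggttct

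These stretches are shown so that the matches can be set beside the levels of their genes. On the total without hormone UMIs the log2 ratio of insulin-led to other hormone-led barcodes in WT was 2.37 for Nqo1, 0.38 for Txn1, -0.00 for Txnrd1 and -0.18 for Sod1. Such letters are a description and no evidence of binding. Gpx3, the one member lower past a fold of 2 on this total, had neither motif in its window.

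Sod1, the copper-zinc superoxide dismutase of the cytosol (ENSMUSG00000022982, GRCm38 chr16:90220754-90226329, + strand), was measured in insulin-led barcodes at 137 CPM (134 to 141) in WT and 124 (118 to 129.8) in GKO. It was higher in glucagon-led barcodes, at 208 and 168, and in somatostatin-led barcodes, at 155 and 139. It was lower in pancreatic polypeptide-led barcodes, at 107 and 94.4. The 4 hormone-led classes kept this order in both libraries. Endothelial-like barcodes, at 201 and 186, had intervals that overlapped those of the glucagon-led ones, and the stellate-like and macrophage-like barcodes were lowest, between 51.4 and 69.4, with overlapping intervals within each library. The insulin-led to other hormone-led ratio was -0.18 (-0.23 to -0.12) in WT and -0.15 in GKO on the log2 scale. Sod1 overlaps Scaf4 on the opposite strand, which gave 1437 and 1113 UMIs in all, and reads of the shared stretch cannot be told apart unless strand was counted.

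Sod2, the manganese superoxide dismutase of mitochondria (ENSMUSG00000006818, chr17:13006846-13040063, + strand), had the flattest profile. Its level was 131 in WT and 140.3 in GKO in insulin-led barcodes, and between 108 and 149 in the other 3 hormone-led classes of the 2 libraries. In the nonendocrine classes it was between 88.4 (activated stellate-like, GKO) and 164 (quiescent stellate-like, GKO). Insulin-led barcodes were slightly above the other hormone-led ones, by 0.14 (0.08 to 0.20) in WT and 0.10 (0.02 to 0.17) in GKO on the log2 scale.

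Cat, the peroxisomal enzyme that splits hydrogen peroxide (ENSMUSG00000027187, chr2:103453849-103485160, - strand), separated endocrine from nonendocrine barcodes. Insulin-led barcodes gave 114 UMIs in WT and 40 in GKO, a level of 3.3 (2.73 to 3.97) and 2.99 (2.13 to 4.07) CPM. Glucagon-led barcodes had 2.02 and 1.64, pancreatic polypeptide-led 2.2 and 2.41, and somatostatin-led 6.09 and 6.89. All of these were far below the nonendocrine barcodes, at 34.7 (32 to 37.6) and 44.7 (41.9 to 47.7). The endothelial-like, stellate-like and macrophage-like barcodes each lay between 30 and 51.2, so the higher level was found in each of these 4 marker-defined classes. Low catalase was therefore a feature of every hormone-led class: the insulin-led to other hormone-led ratio was -0.13 (-0.51 to 0.25) in WT and -0.14 (-0.70 to 0.40) in GKO, with intervals that include 0. On the scale of all UMIs this ratio stood at -0.999 in WT, just inside the fold of 2, and at -0.93 in GKO. It turned to 0.59 and 0.16 on that scale when a leading hormone had to take at least 25% of UMIs. That limit left 106 of 1414 (WT) and 90 of 1003 (GKO) somatostatin-led barcodes, the hormone-led class with the most Cat. The part of this change in the ratio was not tested.

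A Cat UMI was present in 4.28% (WT) and 4.01% (GKO) of insulin-led barcodes and in 26.6% and 28.6% of nonendocrine barcodes, whose median depth was 8567.5 and 8053 UMIs. With each barcode thinned to 2000 UMIs these shares were 0.221% and 0.229% against 6.66% and 8.25%. The 2000 UMIs include those of hormone genes. Other genes held 38.7% and 40.8% of UMIs in insulin-led barcodes and 97.6% and 98% in nonendocrine ones, so depth outside the hormones was not matched. Glucagon-led barcodes, with 1.72% and 1.22% before thinning at a median depth of 12502.5 and 12174 UMIs, were at 0.191% and 0.215% after it, and somatostatin-led ones at 0.778% and 0.898%. The thinned shares rest on 5 and 2 insulin-led, 2 and 3 glucagon-led and 11 and 9 somatostatin-led barcodes, too few to order the insulin-led and glucagon-led classes at matched total depth.

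Gpx1, the glutathione peroxidase of cytosol and mitochondria (ENSMUSG00000063856, chr9:108338903-108340343, + strand), was at 136 in WT and 139 in GKO in insulin-led barcodes. Glucagon-led barcodes were lower, at 112 and 110.3, and pancreatic polypeptide-led barcodes similar, at 127 and 131. Somatostatin-led barcodes were higher, at 265 and 250.1. The insulin-led to other hormone-led ratio was -0.36 (-0.41 to -0.30) in WT and -0.15 in GKO on the log2 scale. Against the somatostatin-led class alone it was -0.96 and -0.85, and against the glucagon-led class 0.29 and 0.33. Nonendocrine barcodes had 410.5 and 498, and macrophage-like barcodes the most, with 720.2 and 799.

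Gpx4, which reduces lipid peroxides within membranes (ENSMUSG00000075706, chr10:80047166-80056439, + strand), was nearly even over the endocrine classes. Insulin-led barcodes had 283 in WT and 281 in GKO, glucagon-led 272 and 273, and somatostatin-led 269 and 282, with pancreatic polypeptide-led barcodes lower at 207 and 215. Endothelial-like barcodes had 458 and 518, quiescent stellate-like 495 and 575, and macrophage-like 234 and 252. Macrophage-like barcodes, highest in Gpx1, were thus the lowest of the 4 marker-defined classes in Gpx4.

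Gpx3, the secreted glutathione peroxidase found in plasma (ENSMUSG00000018339, chr11:54902453-54910377, + strand), had the widest range among the endocrine classes of all members but Nqo1. Insulin-led barcodes held 14915 UMIs in WT and 5541 in GKO, a level of 432 (425 to 439) and 414 (403 to 425). Glucagon-led barcodes were highest, with 27351 and 26782 UMIs, or 2627 and 1997 CPM. Pancreatic polypeptide-led barcodes followed with 1435 and 1281, and somatostatin-led barcodes with 1208 and 1170.2. The 4 classes kept this order in both libraries, with no overlap of their intervals within a library.

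Against the other hormone-led barcodes pooled, Gpx3 was 3.96-fold lower in insulin-led barcodes in WT (log2 -1.98, -2.01 to -1.96) and 3.75-fold lower in GKO (-1.91, -1.95 to -1.87). It was lower against each of them alone, by 6.08-fold and 4.83-fold against glucagon-led, 2.79-fold and 2.83-fold against somatostatin-led, and 3.32-fold and 3.1-fold against pancreatic polypeptide-led barcodes. Gpx3 also made up most of what separated the classes in the sum of all 10 genes. That sum was 1445 (WT) and 1468 (GKO) CPM in insulin-led barcodes against 3583 and 2941 in glucagon-led ones, but without Gpx3 it was 1013 and 1055 against 956 and 944.

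Insulin-led barcodes were themselves uneven in Gpx3. The median barcode held 2 Gpx3 UMIs in WT and in GKO, with quartiles of 0 and 9 in both, and the top 10% of barcodes held 50.7% and 45.4% of the UMIs. In glucagon-led barcodes the medians were 22 and 15 UMIs. Split by the share of their UMIs from insulin, WT barcodes with 10 to 25% had a Gpx3 level of 800.2, those with 25 to 40% had 916.8, those with 40 to 60% had 586.5 and those with 60 to 100% had 202.8. The GKO values were 755.4, 831.4, 506.2 and 192.5. In both libraries the level of the highest bin, which held 1270 and 447 barcodes, was less than that of every other bin.

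Hormones of other cells also differed along the same bins. Gcg took 1.89% of the UMIs of WT barcodes with 25 to 40% insulin and 0.0613% of those with 60 to 100%, Sst 2.29% and 0.0628%, and Ppy 4.41% and 0.0761%. Among insulin-led barcodes with a second hormone at 10% or more, 62 in WT and 22 in GKO, Gpx3 was at 1192 and 1086, and in those with 1 hormone at 399.8 and 384.5. The part of other hormone-led cells in the Gpx3 of insulin-led barcodes was not tested beyond this. With barcodes of more than 1 hormone left out, the log2 ratio in CPM of all UMIs was -2.96 in WT and -2.81 in GKO, against -2.85 and -2.70 with them.

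The share of barcodes with a Gpx3 UMI was 69.7% (WT) and 69.3% (GKO) in insulin-led, 99.7% and 99.4% in glucagon-led, and 10.5% and 9.64% in endothelial-like barcodes at a median depth of 6959 and 7225.5 UMIs. At 2000 UMIs a barcode the shares were 22.9% and 24.5%, 91% and 85.7%, and 4.22% and 2.84%. The insulin-led share was thus above the endothelial-like one also at matched total depth, and the part of background RNA in either share was not tested. Among nonendocrine barcodes, Gpx3 was high in the activated stellate-like ones, at 958 (919 to 999) and 1448 (1414 to 1482), and between 16.3 and 93.3 in the endothelial-like, quiescent stellate-like and macrophage-like ones.

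**Figure D2:**
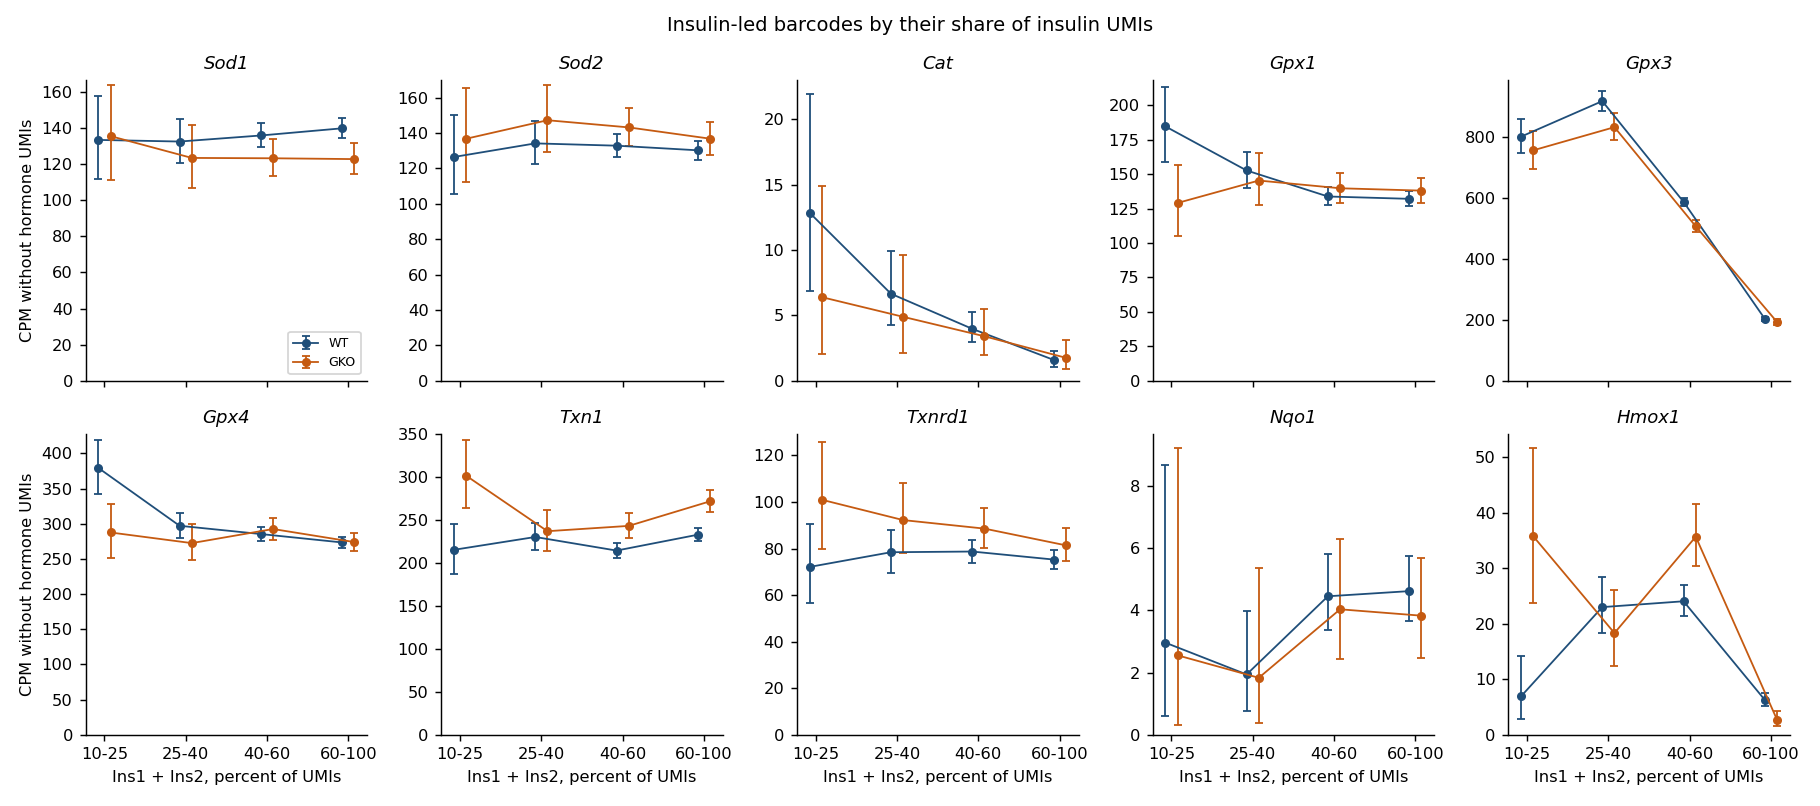
Levels in CPM of non-hormone UMIs (y axis, from 0) are plotted for insulin-led barcodes in 4 bins of the share of UMIs from Ins1 and Ins2 (x axis, percent), for WT (blue) and GKO (orange) with 95% Poisson intervals. Gpx3 goes from 916.8 to 202.8 in WT and from 831.4 to 192.5 in GKO between the bins of 25 to 40% and 60 to 100%, and Cat from 12.8 to 1.6 and from 6.39 to 1.76 between the first and the last bin, while Sod1 stays between 122.7 and 139.8 over all bins and both libraries.

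Cat followed the bins in the same direction, from 12.8 (6.84 to 22) through 6.65 and 3.97 to 1.6 (1.06 to 2.31) in WT and from 6.39 through 4.89 and 3.4 to 1.76 in GKO, on 5 to 49 UMIs a bin. Hmox1 had no such order. It was at 6.92, 23, 24.1 and 6.27 in WT and at 35.8, 18.3, 35.7 and 2.71 in GKO.

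Txn1, the small protein that reduces disulfides (ENSMUSG00000028367, chr4:57943373-57956411, - strand), was, after Nqo1, the member with the highest insulin-led level relative to the other hormone-led classes. Insulin-led barcodes had 226 in WT and 259 in GKO, glucagon-led 156 and 163, somatostatin-led 212 and 234, and pancreatic polypeptide-led 143 and 159. The ratio was 0.38 (0.33 to 0.43) in WT and 0.52 in GKO. Endothelial-like barcodes exceeded all endocrine classes, with 659 and 675.

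Txnrd1, which reduces thioredoxin again with NADPH (ENSMUSG00000020250, chr10:82833951-82897712, + strand), was as high in insulin-led barcodes as in the others. Its level was 76.8 and 86.4 in insulin-led, 77.1 and 84.6 in glucagon-led, 90.4 and 102 in somatostatin-led and 60.7 and 66.7 in pancreatic polypeptide-led barcodes. The pooled ratio was -0.00 (-0.08 to 0.08) in WT and 0.04 (-0.06 to 0.14) in GKO. Eid3 lies inside Txnrd1 on the same strand and is not among the genes of the matrices. Unlike Txn1, Txnrd1 was below its insulin-led level in the 4 marker-defined nonendocrine classes, between 32.2 and 71.6, with 47.3 and 53.5 in endothelial-like barcodes. In WT quiescent stellate-like barcodes, at 71.6 (52.6 to 95.2), the interval included the insulin-led level, and the level was above the pancreatic polypeptide-led one.

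Nqo1, the cytosolic quinone reductase and a standard NRF2 target (ENSMUSG00000003849, chr8:107388225-107403206, - strand), was the member that stood higher in insulin-led than in other hormone-led barcodes in CPM of all UMIs, in CPM of non-hormone UMIs and per barcode, at low counts. Insulin-led barcodes gave 146 UMIs in WT and 48 in GKO, a level of 4.23 (3.57 to 4.98) and 3.58 (2.64 to 4.75). The other hormone-led barcodes together gave 28 and 25 UMIs, or 0.817 (0.543 to 1.18) and 0.782 (0.506 to 1.15). Within them, glucagon-led barcodes had 15 UMIs in each library, pancreatic polypeptide-led 10 and 6, and somatostatin-led 3 and 4. The insulin-led level was 5.18-fold higher in WT (log2 2.37, 1.78 to 3.01) and 4.58-fold higher in GKO (2.20, 1.47 to 2.96), where the 73 UMIs of both classes were under the minimum of 100.

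Endothelial-like barcodes were at 6.69 and 7.33, and quiescent stellate-like ones at 7.62 and 7.12 on 5 and 9 UMIs. A UMI was present in 5.74% and 4.82% of insulin-led barcodes, in 0.212% and 0.399% of somatostatin-led barcodes at a median depth of 11065 and 10148 UMIs, and in 0 of 163 WT macrophage-like barcodes, which allows a share of up to 1.84% (3 of 163 barcodes). Thinned to 2000 UMIs, hormone UMIs included, the insulin-led share was 0.442% and 0.229%, which is 10 and 2 barcodes, and the glucagon-led share was 0.287% and 0.0717%. Without the hormone-led barcodes that held a C1q UMI, the log2 ratio in CPM of all UMIs was 1.96 in WT (35 insulin-led UMIs) and -0.15 in GKO, where 3 insulin-led UMIs were left.

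Hmox1, which breaks down heme (ENSMUSG00000005413, chr8:75093621-75100589, + strand), was above all a transcript of macrophage-like barcodes. These gave 2778 UMIs in WT and 5633 in GKO, a level of 1495 (1440.2 to 1552) and 1381 (1345 to 1417), with a UMI in 90.8% and 86.9% of them. Insulin-led barcodes gave 497 and 243 UMIs, a level of 14.4 (13.2 to 15.7) and 18.1 (15.9 to 20.6). Glucagon-led barcodes had 20.6 and 23, somatostatin-led 9.86 and 13.1, and pancreatic polypeptide-led 43.2 and 29.8. The insulin-led class therefore lay above the somatostatin-led and below the other 2 classes, and the pooled ratio was -0.72 (-0.88 to -0.56) in WT and -0.31 (-0.52 to -0.10) in GKO.

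Macrophage transcripts went with Hmox1 within the insulin-led class. Insulin-led barcodes with a C1q UMI had a Hmox1 level of 16.5 in WT and 20.6 in GKO, and those without had 6.09 (4.41 to 8.21) and 6.21 (3.39 to 10.4). Pancreatic polypeptide-led barcodes without a C1q UMI still had 40.04 (34.4 to 46.3) in WT and 20.5 (16.5 to 25.1) in GKO. Hmox1 was thus lower in insulin-led barcodes also where no C1q UMI was found, with a log2 ratio in CPM of all UMIs of -2.47 and -1.81 over such barcodes, against -1.59 and -1.10 over all. Between the hormone-led classes the order was another one. The summed level of all 6 macrophage markers was highest in insulin-led barcodes, at 238 and 338, and lowest in pancreatic polypeptide-led barcodes, at 125 and 143, the class with the most Hmox1. It was 14549 and 16646 in macrophage-like barcodes. How much of the endocrine Hmox1 came from macrophages was not tested.

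**Figure D3:**
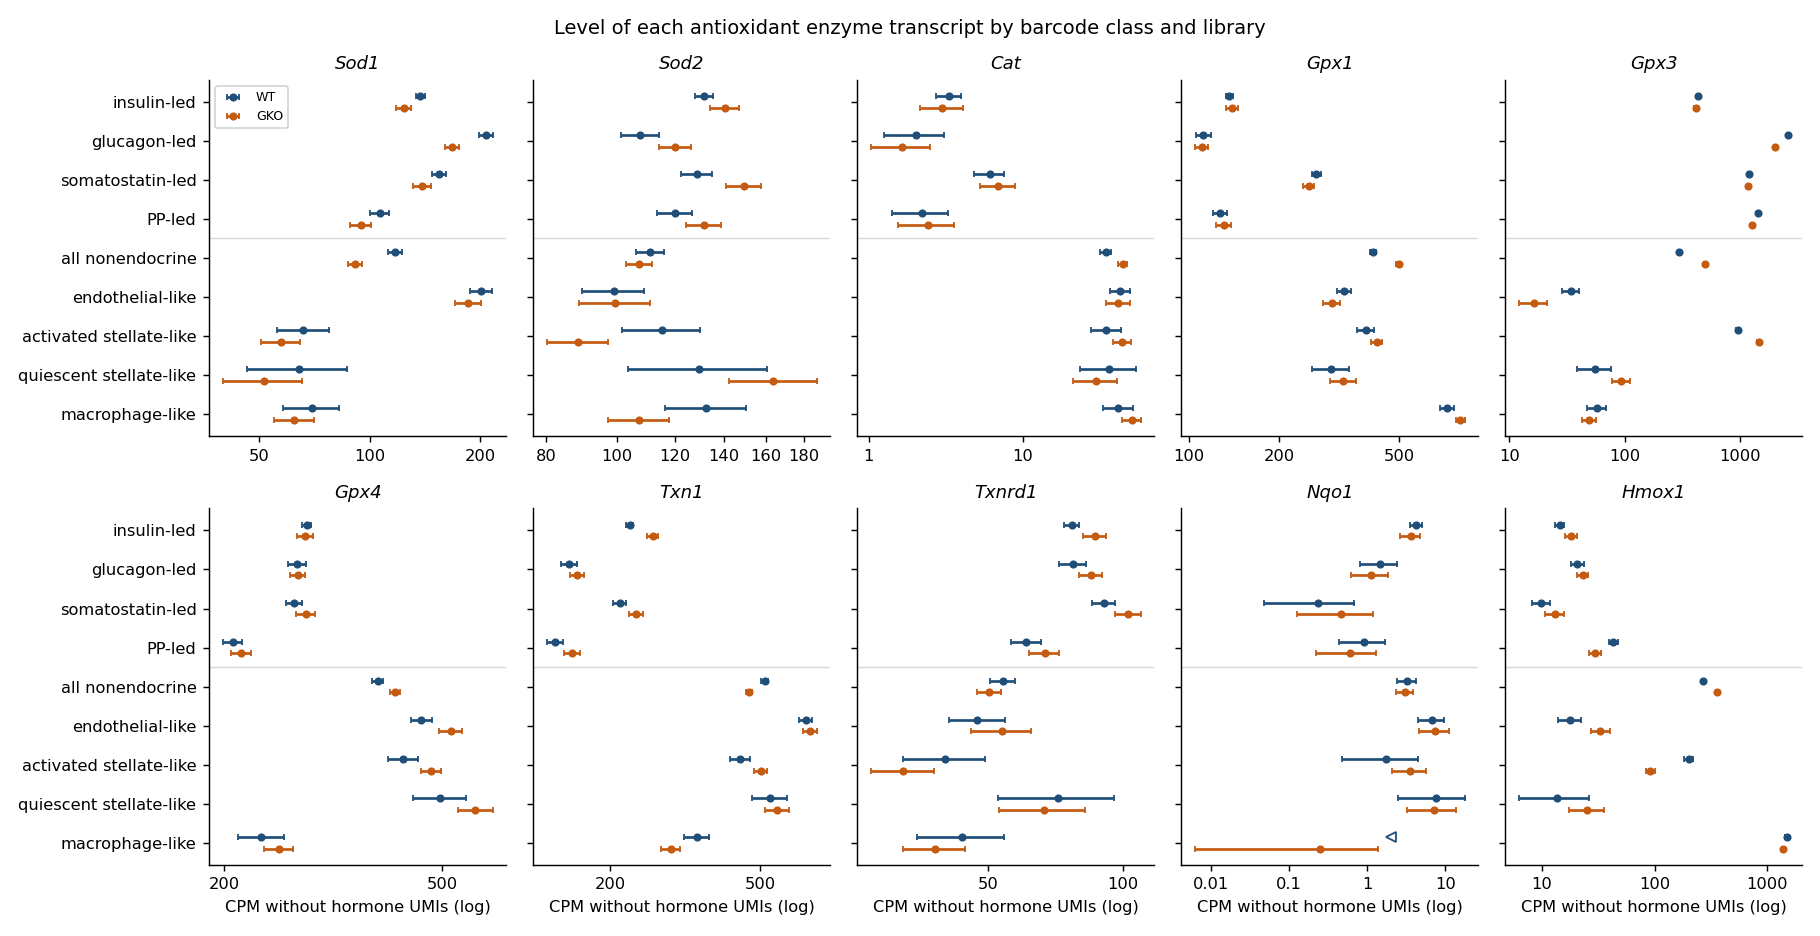
Levels in CPM of non-hormone UMIs (x axes, log scale, with their own range in each panel) are plotted for the 10 genes in 9 barcode classes, for WT (blue) and GKO (orange) with 95% Poisson intervals, and an open triangle marks the upper limit of a class with 0 UMIs. Gpx3 is highest in glucagon-led barcodes (2627 and 1997), Cat is at 1.64 to 6.89 in the hormone-led classes and at 30 to 51.2 in the 4 marker-defined nonendocrine classes, and Hmox1 is highest in macrophage-like barcodes (1495 and 1381).

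Against the nonendocrine barcodes, on the total without hormone UMIs, insulin-led barcodes were lower by more than a fold of 2 in Cat (10.5-fold), Gpx1 (3.01-fold), Txn1 (2.28-fold) and Hmox1 (18.8-fold) in WT. This was 4 of 10 genes beside 23% of 13171 genes. In GKO these were Cat (15-fold), Gpx1 (3.58-fold) and Hmox1 (19.9-fold), 3 of 10 genes beside 24.8% of 12717 genes. The set of genes low in insulin-led barcodes thus depended on the comparison: Gpx3 against other endocrine barcodes, and Cat, Gpx1 and Hmox1 against nonendocrine ones, where Gpx3 was at 0.55 in WT and -0.27 in GKO.

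The genotypes were compared within each barcode class, in CPM of all UMIs, as the log2 ratio of GKO to WT. No antioxidant gene with at least 100 UMIs differed by more than a fold of 1.5 in any hormone-led class. This was 0 of 10 genes with at least 100 UMIs in insulin-led barcodes (4.64% of all genes passed), 0 of 8 in glucagon-led (3.39%), 0 of 9 in somatostatin-led (3.13%) and 0 of 8 in pancreatic polypeptide-led barcodes (2.92%). Under that minimum, Nqo1 was at 1.02 in somatostatin-led (3 and 4 UMIs) and -0.59 in pancreatic polypeptide-led barcodes (10 and 6 UMIs). In insulin-led barcodes Gpx3 stood at 167 CPM in WT and 169 in GKO, a log2 ratio of 0.01 (-0.03 to 0.06). The larger differences there were Hmox1 at 0.41 (0.18 to 0.63), Txn1 at 0.28 (0.22 to 0.33), Txnrd1 at 0.25 (0.15 to 0.35) and Sod2 at 0.17 (0.09 to 0.25), beside a median of 0.09 over all genes. On the total without hormone UMIs that median was 0.01. The Hmox1 ratio did not keep its sign over the alternatives. It was -0.40 with barcodes thinned to 2000 UMIs, -0.056 without barcodes of nonacinar foreign markers and 0.12 without barcodes with a C1q UMI, and 1 GKO barcode held 68 of the 243 UMIs.

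In the other endocrine classes the ratios farthest from 0 on more than 100 UMIs were those of Hmox1 and Gpx3, in both directions. Gpx3 was at 1887 CPM in WT and 1429.7 in GKO in glucagon-led barcodes (-0.40, -0.42 to -0.38). Hmox1 in pancreatic polypeptide-led barcodes was at 27.3 CPM in WT and 19.1 in GKO (-0.52, -0.73 to -0.30), on 471 and 297 UMIs. Without barcodes that held a C1q UMI this ratio was -0.93, past the fold of 1.5. In somatostatin-led barcodes Hmox1 was higher in GKO (0.41, 0.03 to 0.79), on 128 and 112 UMIs, but this ratio lay between -1.28 and 0.86 over the alternatives and was -0.47 without barcodes with a C1q UMI.

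Sod1 was lower in GKO in 8 of 8 single classes, by 0.08 to 0.32 on the log2 scale. These classes come from the same 2 libraries and are not replicates of each other. The interval of Sod1 lay below 0 in 3 of them, the glucagon-led, somatostatin-led and pancreatic polypeptide-led ones. In insulin-led barcodes the ratio was -0.076 (-0.16 to 0.005) and turned to 0.12 with barcodes thinned to 2000 UMIs. Between 6.19% and 25.5% of genes had a lower ratio in the same class. Genes with a transcript no longer than that of Sod1 (641 bases) had a median ratio between -0.21 and -0.02 in these classes. Ribosomal protein, mitochondrial and hormone genes were left out of that median. The part of transcript length in the ratio of Sod1 was not tested.

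**Figure D4:**
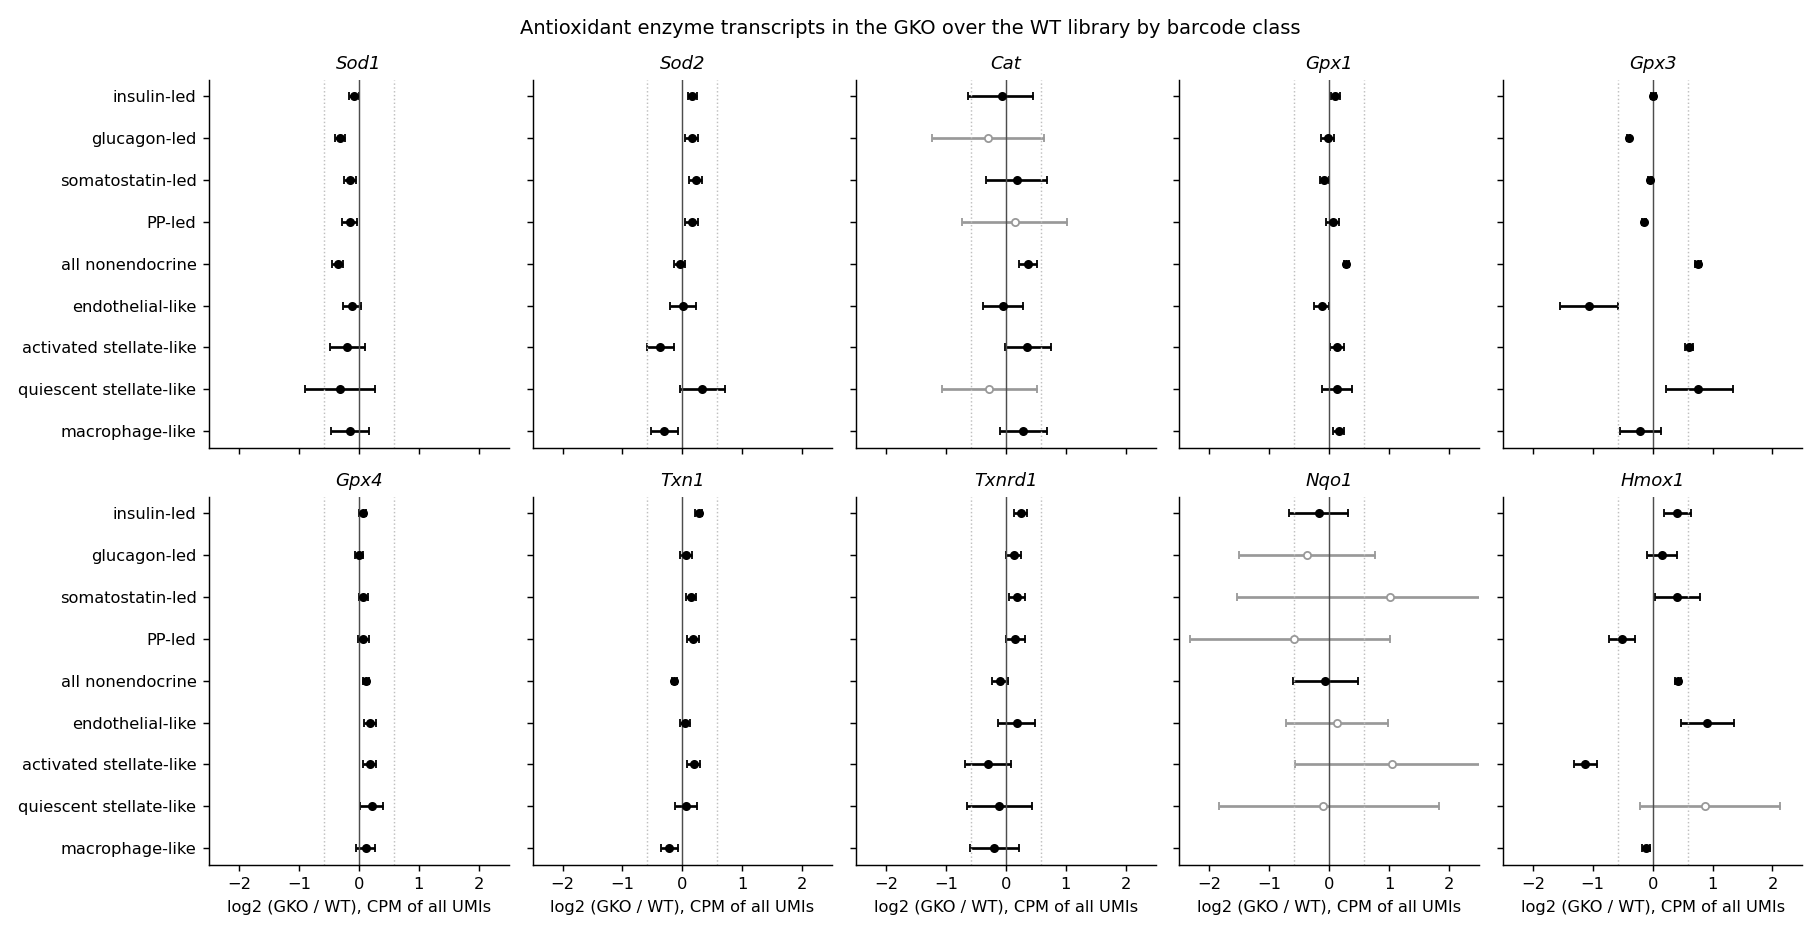
The log2 ratio of GKO to WT (x axis, CPM of all UMIs) is plotted for the 10 genes in 9 barcode classes, with 95% Poisson intervals, dotted lines at a fold of 1.5 and gray open points where fewer than 100 UMIs were counted. All filled points of the 4 hormone-led classes lie between the dotted lines, and in the single nonendocrine classes the filled points outside are Gpx3 in endothelial-like (-1.06), activated stellate-like (0.61) and quiescent stellate-like (0.76) and Hmox1 in endothelial-like (0.91) and activated stellate-like (-1.12) barcodes; Nqo1 in macrophage-like barcodes, with 0 and 1 UMIs, is not drawn.

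In all nonendocrine barcodes pooled, 1 of 10 genes passed the fold of 1.5, beside 13.2% of all genes: Gpx3 was at 289 CPM in WT and 489 in GKO (0.76, 0.71 to 0.81). Activated stellate-like barcodes, the class with the most Gpx3, were 233 of 1656 nonendocrine barcodes in WT and 548 of 2405 in GKO, so the makeup of the group moved with this ratio. With barcodes of 10 to 25% of a hormone counted as nonendocrine too, the ratio was -0.083.

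In activated stellate-like barcodes 2 of 9 genes passed, beside 9.17% of all genes. Gpx3 was at 943 CPM in WT and 1436 in GKO (0.61, 0.54 to 0.68), and Hmox1 at 199 and 91.2 (-1.12, -1.32 to -0.93). Without barcodes that held a C1q UMI these ratios were 0.51 (0.44 to 0.59), under the fold of 1.5, and -1.09. A total without hormone, mitochondrial and ribosomal protein UMIs also left Gpx3 under that fold. The top 10% of barcodes held 81.6% and 79.5% of the Hmox1 UMIs of this class, so few barcodes carried them.

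In endothelial-like barcodes 2 of 9 genes passed, beside 4.05% of all genes. Gpx3 gave 142 UMIs in WT and 51 in GKO (33.6 and 16.1 CPM, -1.06, -1.55 to -0.59), and Hmox1 gave 74 and 104 (17.5 and 32.9 CPM, 0.91, 0.47 to 1.36). Of the 142 Gpx3 UMIs in WT, 99 lay in 31 barcodes with a C1q UMI. Without such barcodes Gpx3 gave 43 and 38 UMIs and a ratio of 0.22 (-0.44 to 0.89), while Hmox1 kept 0.92 (0.47 to 1.39).

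In quiescent stellate-like barcodes 1 of 7 genes passed, beside 5.62% of all genes. This was Gpx3, with 36 and 118 UMIs (0.76, 0.21 to 1.34), and 0.79 without barcodes with a C1q UMI. These UMIs lay in 13 of 134 WT and 25 of 253 GKO barcodes, a share of 9.7% and 9.88%, and single barcodes held up to 15 and 30 of them, so few barcodes carried the ratio. In macrophage-like barcodes 0 of 9 genes passed, beside 11.3%, and Hmox1 was at 1471 CPM in WT and 1363 in GKO (-0.11, -0.18 to -0.04).

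Of a wider list of 48 redox genes, 46 had at least 100 UMIs in the hormone-led barcodes of each library. On the total without hormone UMIs, 17 were lower and 29 higher in insulin-led barcodes in WT and 19 and 27 in GKO, with medians of 0.14 and 0.12, beside 49.5% and 52.2% of all genes lower. Past a fold of 2, Gsta4 (-1.15) and Prdx4 (-1.04) were lower and Glrx (1.56) higher in WT, and Gsta4 (-2.49) and Mgst1 (-1.02) were lower and Glrx (1.26) and Glrx5 (1.04) higher in GKO. This was 2 of 46 genes lower in each library, beside 7.65% and 7.64% of all genes, and 1 and 2 higher, beside 6.69% and 6%. Prdx4 is the peroxiredoxin of the endoplasmic reticulum, and was at 85.3 CPM in insulin-led and 175 in other hormone-led barcodes of WT. Glrx, the glutaredoxin of the cytosol, was at 43.4 and 14.7.

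By group of that list, the lowest and highest WT ratios were -1.04 (Prdx4) and 0.45 (Srxn1, sulfiredoxin) for peroxiredoxins, -0.31 (Gpx7) and 0.49 (Gpx8) for the other glutathione peroxidases, and -0.28 (Txnrd3) and 1.56 (Glrx) for thioredoxins and glutaredoxins. For the glutathione pathway they were -0.23 (Gss, glutathione synthetase) and 0.41 (Slc3a2, a chain of the cystine transporter), and -1.15 (Gsta4) and 0.70 (Gstm1) for glutathione S-transferases. For heme and iron they were -0.25 (Blvrb) and 0.76 (Ftl1, ferritin light chain), for NADPH supply -0.47 (Me1) and 0.99 (Idh1), and for NRF2 regulators -0.09 (Sqstm1) and 0.61 (Bach1, a repressor of Hmox1). Ccs, the copper chaperone of Sod1, was the one superoxide gene tested, at 0.11.

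Between the genotypes, in CPM of all UMIs, insulin-led barcodes had 9 of 45 genes of that list lower and 36 higher in GKO. Their median was 0.09, against 0.09 over all genes, so most genes of the genome were higher on this scale too. On the total without hormone UMIs the median of all genes was 0.01. Past a fold of 1.5 were 2 genes, Mgst1, at -0.78, and Gpx8, at 0.77 on 101 UMIs, beside 4.64% of all genes. In glucagon-led barcodes 1 of 42 genes passed (Mgst1, -0.76, beside 3.39%), in somatostatin-led 0 of 42 (3.13%), and in pancreatic polypeptide-led 1 of 42 (Mgst1, 1.44 on 110 UMIs, beside 2.92%). Both genes were mainly found in nonendocrine barcodes, Mgst1 at 95.6 CPM of non-hormone UMIs in WT and 153 in GKO against 5.28 and 2.91 in insulin-led barcodes, and Gpx8 at 77.8 and 112 against 1.8 and 2.91. The 6 activated stellate markers together were higher in GKO, at 49.4 (WT) and 81 (GKO) CPM of all UMIs in insulin-led barcodes. They were at 80.9 and 135 in glucagon-led and at 46.6 and 162 in pancreatic polypeptide-led barcodes. Mgst1 was lower in GKO in the insulin-led and glucagon-led classes. The 6 acinar markers together were lower in GKO in the same 3 classes, at 386 and 76.2, 415 and 194, and 323 and 206. The part of cells with either set of markers in these ratios was not tested.

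Genes with the most similar pattern were sought for each member among 5867 genes with at least 50 CPM in 1 of 16 points. The points were 8 barcode classes in 2 libraries, and likeness was the highest Pearson correlation of log2(CPM + 10). CPM here was of all UMIs, the scale on which most genes were lower in insulin-led barcodes. The part of that shared difference in the correlations was not tested. The points share libraries and depth, so the correlations are descriptions. Gpx3 was most like Gria3 (0.968), Gata6 (0.952) and Gmppa (0.946). Cat was most like Plbd2 (0.986), Zfp36l1 (0.984) and Pmepa1 (0.982), and Hmox1 like Cxcl16 (0.98), Ccl9 (0.979) and Slc29a3 (0.974). Nqo1 was most like Cav1 (0.974), Tm4sf1 (0.974) and Inpp5a (0.972), but its level was at most 7.55 CPM, below the added constant of 10. Gpx1 was most like Hsd17b11 (0.976), Stard3nl (0.974) and Mpp1 (0.972), and Gpx4 like Trpm7 (0.985), Vps29 (0.983) and Smc1a (0.982). Txn1 was most like Aldh2 (0.985), Akt1 (0.985) and Bzw1 (0.984). The lowest such values were those of Sod1 with Cd2ap (0.934), Rbm6 (0.934) and Phf14 (0.93), Sod2 with Tor1a (0.918), Ube2d2a (0.913) and Cox4i1 (0.913), and Txnrd1 with Mrpl41 (0.918), Pnisr (0.916) and Rbm26 (0.914).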

How the data were processed

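UMI counts per gene and barcode were used as deposited. The authors had made these counts with Cell Ranger 5.0.1 (matrix header), which aligns with STAR, on mm10 (submitters' processing notes) from reads down-sampled across samples. No ambient RNA was removed here. The annotation release and the use of strand in counting are not given in the sources used here. Barcodes were kept from 500 detected genes upwards if mitochondrial UMIs did not exceed 10%, and placed in a class by leading hormone (at least 10% of UMIs). Nonendocrine barcodes were named from fixed lists when at least 3 markers had a UMI, 2 more than in the next list. No doublet caller was run, and alternatives leave out barcodes with a second hormone or foreign markers.

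UMIs were summed per class and library and scaled to CPM of all UMIs or of UMIs outside the 5 hormone genes. Ratios of sums have exact Poisson intervals and shares exact Clopper-Pearson intervals (95%), with 3 counts as the floor of a share at 0. A gene needed 100 UMIs in both groups together to be counted, and called means past a fold of 2 between classes or 1.5 between genotypes. 0 per-sample columns were left unused. For barcode sums the depth ranged from 103511757 to 158067110 UMIs per library.

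The members and lists were chosen with earlier results of these data known. Beside the 10 members, genes named are the lowest and highest of each group of the wider list and the 3 genes most like each member. Genes of the wider list past a fold were also named, after their values were seen. Gene positions are from GENCODE vM21 (GRCm38, the assembly also called mm10). 10 alternatives were planned and 2 were added after seeing the data (hormone-led barcodes without C1q UMIs, and foreign markers without the acinar list). The scripts were tested on simulated data. The work was done in Python 3.11.15 with scipy 1.17.1, numpy 2.4.6 and pandas 2.3.3, and plots with matplotlib 3.10.9.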

Additional observations from a re-analysis of the deposited data

Results flagged for a closer look

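For 2 genes, each with a ratio past the fold of 1.5, the direction of the GKO to WT ratio differed between nonendocrine classes, with intervals on opposite sides of 0, so they are given again side by side. Gpx3 was at a log2 ratio of 0.76 in quiescent stellate-like and -1.06 in endothelial-like barcodes, 1.82 apart, and the second value was 0.22 without barcodes that held a C1q UMI. Hmox1 was at 0.91 in endothelial-like and -1.12 in activated stellate-like barcodes, 2.04 apart, and these were 0.92 and -1.09 without such barcodes. Gpx1 and Txn1 had intervals on opposite sides of 0 too, at ratios under that fold. Gpx1 was at -0.13 in endothelial-like and 0.13 in activated stellate-like barcodes, and Txn1 at 0.19 in activated stellate-like and -0.22 in macrophage-like barcodes. The share of all genes with intervals on opposite sides of 0 was not counted, so these values cannot be read as particular to the members. None of these differences was tested, since each class has 1 library per genotype.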

How the results depend on the processing

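No paired analysis was possible because there is 1 library per genotype and no result comes from a test. The counts against other hormone-led barcodes depended mainly on the total. Lower by more than a fold of 2 were 1 gene in WT and 1 in GKO without hormone UMIs, 1 and 1 without hormone, mitochondrial and ribosomal protein UMIs, and 2 and 1 with a leading hormone of at least 25%, against 4 and 2. In WT up to 6 passed, with barcodes thinned to 2000 UMIs. In GKO 4 genes passed with barcodes weighed the same, 4 with barcodes thinned to 2000 UMIs and 4 with barcodes of nonacinar foreign markers left out. Genes lower at all in GKO were 5 and 5 on the totals without hormone UMIs, against 9. The percent of all genes past the fold was 7.65, 7.78 and 20.1 in WT and 7.64, 7.80 and 22.4 in GKO under the first 3 of these settings. Over all alternatives it reached up to 39.97 in WT and 36.1 in GKO. The counts of 6 and 4 have no percent of their own setting beside them, so they cannot be read as particular to these genes. Gpx3 stayed lower in both libraries under each alternative. Nqo1 in GKO was reversed, at -0.15, without barcodes holding a C1q UMI.

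Between genotypes, 1 gene passed the fold of 1.5 in insulin-led barcodes when thinned (Txnrd1, 0.76). In glucagon-led barcodes 1 passed without those with foreign markers (Hmox1, 1.16) and 1 when acinar markers were not counted (Hmox1, 0.60). In pancreatic polypeptide-led barcodes 1 passed with barcodes weighed the same and 1 without C1q UMIs (Hmox1, -0.71 and -0.93). In nonendocrine barcodes 2 passed at the 25% limit (Hmox1, 0.72 and Cat, 0.59), where Gpx3 was reversed, at -0.083. Over all alternatives, 2.63% to 11% of all genes passed this fold in insulin-led and 2.88% to 9.41% in glucagon-led barcodes. In pancreatic polypeptide-led barcodes it was 2.02% to 9.07%, and in nonendocrine barcodes 12.2% to 18.2%. The share under each single setting is not given, so these counts cannot be read as particular to the members. The causes were not tested. Of 240 class ratios of single genes over all alternatives 137 stayed inside the interval and 17 changed sign, and of 597 genotype ratios 504 and 19. Cat and Nqo1 in hormone-led barcodes rest on few UMIs, and with 1 pool per genotype the spread between mice is unknown.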
